A study of Mus musculus with 4 samples.

Results

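The MYC family and its partners were followed in the mouse sarcoma cell line S-180, given 20 µM fluoxetine for 12 h (2 arrays) or cultured for the same time without the drug (2 arrays). The members were the 10 genes Myc, Mycn, Mycl, Max, Mxd1, Mxd3, Mxd4, Mxi1, Mnt and Mlx, out of 23771 gene symbols on the array, and every non-control probe whose RefSeq transcript belongs to one of them was taken. They had 16 probes. A probe was tested if both fluoxetine arrays or both control arrays read it well above background. That held for 12 probes of 8 genes, while Mycn and Mycl had no such probe. Fluoxetine is an antidepressant that blocks serotonin reuptake. All cells grew in medium with 10% serum, and labelled RNA was made from 10 ng per sample. The labels call the samples of a group biological replicates and do not say whether the cultures were separate, so each p-value speaks to the spread of these samples only, and that spread may be technical.

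MYC, MYCN and MYCL are transcription factors that bind DNA only when paired with MAX, mostly at the E-box sequence CACGTG, and they drive genes of growth, ribosome production and nucleotide synthesis. The MXD proteins (with MXI1 among them) and MNT also pair with MAX and occupy the same sites, but they recruit the SIN3 corepressor and lower transcription. MLX is a MAX-like protein that pairs with the glucose-sensing factors MondoA and ChREBP as well as with some MXD proteins and MNT. In many tumours this balance is tilted towards MYC.

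The arrays of a group resembled each other more than they did the other group, with a Pearson's r, taken over 25833 probes that are no independent replicates, of 0.995 between the fluoxetine arrays and 0.993 between the control arrays, against 0.976 to 0.983 between groups. A single slide and a single scan held the 4 arrays. The place of each array on the slide was not read, so an effect of place cannot be told apart from one of group. Among defining markers of mesenchymal cells, 5 of 8 were well above background on all arrays, and Pdgfrb and Thy1 on none. Of 8 leukocyte markers 4 were above background on all arrays, with Ptprc, Adgre1 and Lyz2 on none, and the summed signal of that list, relative to the 75th percentile, was 52.9 to 61.1 in fluoxetine cells and 25.6 to 27.9 in control cells. Its genes did not move together: Cd68, the brightest, rose (1.39) and Cd3e rose (0.52), Itgam fell (−1.96), and Csf1r was at −0.16 and did not pass. Cd3e and Itgam were read at their brightest probe. Of the 2 kept probes of each, 1 had a change of the opposite sign to the brightest. The epithelial markers (4 of 6 above background on all arrays, Cdh1 on none) summed to 180.4 to 185.3 in fluoxetine cells and 211.3 to 224.2 in control cells. Of the 5 tested, Krt14 fell (−2.15) and 4 did not pass, among them the brightest, Krt8 (−0.20) and Krt18 (−0.33). The endothelial markers (1 of 4, with Cdh5, Kdr and Tek on none) summed to 0.267 to 0.326 in fluoxetine cells and 0.244 to 0.287 in control cells. The mesenchymal markers summed to 85.2 to 88.1 in fluoxetine cells and 79.9 to 93.3 in control cells. Of the 6 tested, 5 did not pass. Col1a2, kept only through the control arrays, was at least 2.38-fold lower with fluoxetine, given a floor set on each fluoxetine array as described below for Mxd1. The part of these shifts in the results was not tested. In RNA from whole cultures, fewer cells of a type and less RNA per cell cannot be told apart.

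Levels are log2 of the background-corrected signal relative to the 75th percentile of the array, so 0 is the level of that percentile. Changes are log2 differences of such levels, fluoxetine minus control, with the standard error from limma (n = 2 arrays per group). A change was called at an adjusted p under 0.05 over all 28270 probes kept, and only called probes are said to have risen or fallen.

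The MAX-binding repressors Mnt and Mxd4 rose in fluoxetine cells. Mnt, a broadly expressed repressor that competes with MYC for MAX, was 2.07-fold higher, and Mxd4, a repressor linked to cell cycle exit and differentiation, 1.82-fold higher. The brighter Myc probe did not pass the test, a dimmer Myc probe rose by a small amount, and Max, the shared partner, did not pass. Read through the brightest kept probe of each gene, 2 of 8 tested members rose, 0 fell and 6 did not pass. Over all genes tested in the same way, 22.8% were called, with 14.3% higher and 8.49% lower, so the share of members called (25%) is close to that of the array as a whole. In limma, 3 members were higher and 1 was lower at an unadjusted p under 0.05, where 3289 and 2195 of all 13539 genes were. The median change of the tested members was 0.28, against 0.06 over all 13539 genes.

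The signal of Mnt was 9889 and 10752 units on the fluoxetine arrays, against 5451 and 5697 units on the control arrays. On the normalized scale its levels were 4.79 and 4.68 with fluoxetine, against 3.60 and 3.78 without it. Both fluoxetine arrays lay above both control arrays, and the arrays of a group differed by 0.11 and 0.18. The change of Mnt was 1.05 ± 0.11 (limma, adjusted p = 0.0163). Mxd4 had levels of −0.02 and −0.21 in fluoxetine cells, against −1.003 and −0.96 in control cells, again without overlap. Its change was 0.86 ± 0.11 (limma, adjusted p = 0.0189). Each gene has a single probe. The adjusted p of Mnt was 0.0555 with control 1 left out, 0.0337 with control 2 left out, 0.0892 with fluoxetine 1 left out and 0.0788 with fluoxetine 2 left out, and its change ran from 0.96 to 1.14. That of Mxd4 was 0.0678, 0.0459, 0.0914 and 0.078 in the same order, with changes from 0.77 to 0.96. Without a filter on dim probes neither was called (adjusted p = 0.0887 for Mnt and 0.0957 for Mxd4).

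**Figure D1:**
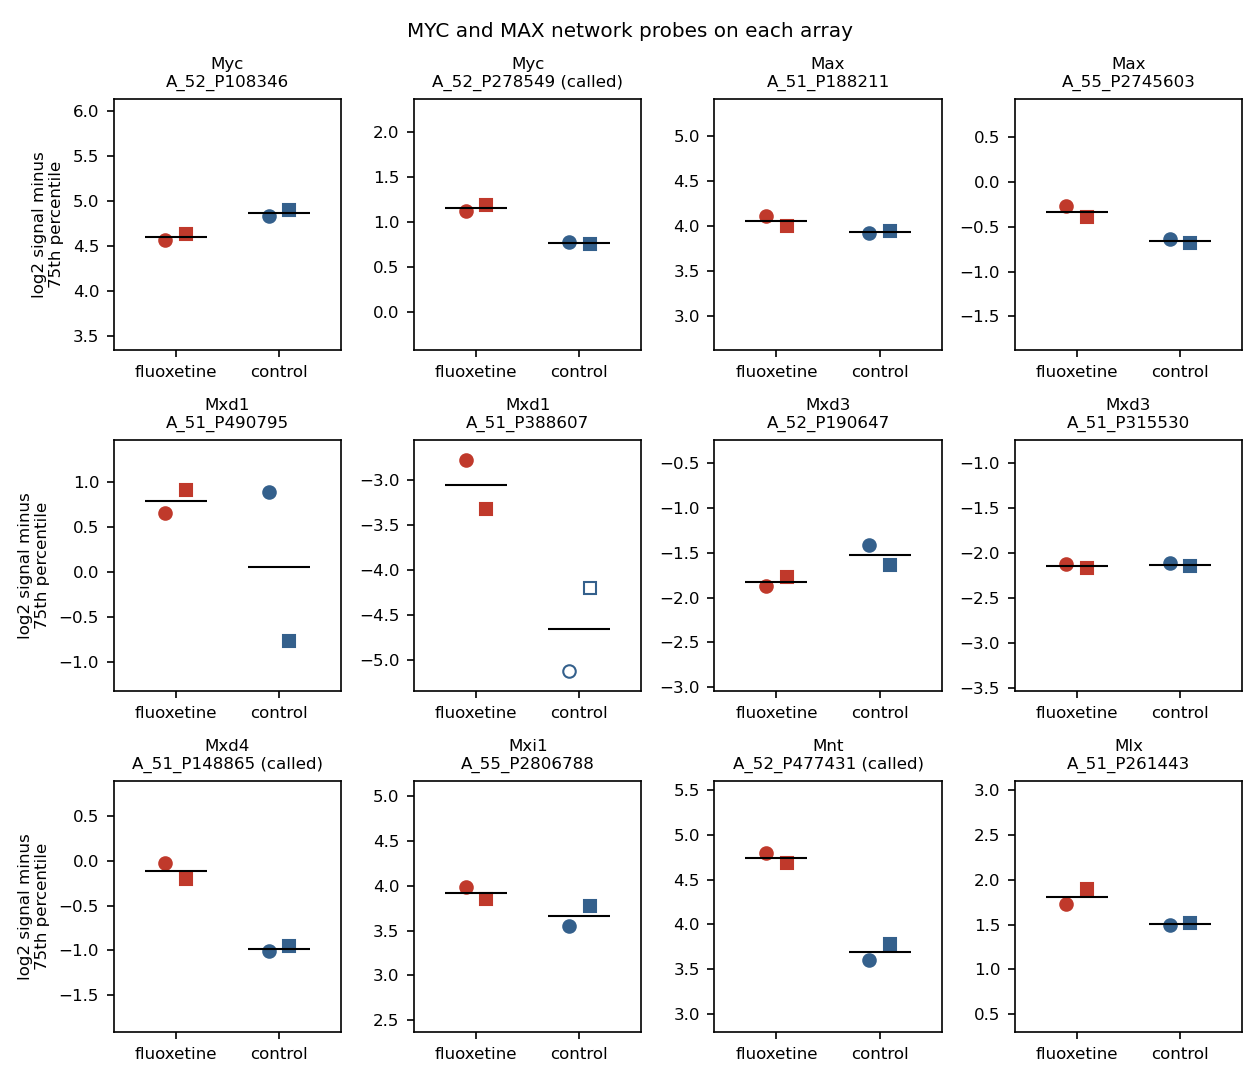
Level of each of the 12 kept member probes on each array, as log2 signal minus the 75th percentile of the array. Fluoxetine arrays are red and control arrays blue, circles are replicate 1 and squares replicate 2, open symbols are not well above background, lines are group means, and every panel spans the same range of log2 units. Mnt and Mxd4 have tight groups that lie apart, whereas Mxd1 probe A_51_P490795 has 1 control array level with the fluoxetine arrays.

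The promoter windows of Mnt and Mxd4 are shown because both genes rose, and those of Max and Mlx because they are the other members whose window holds a full E-box. Each window runs from 250 bases before to 50 bases after the start of the gene, comes from RefSeq on assembly GRCm38.p6 and reads 5′ to 3′ in the direction of transcription. Mnt is at chr11:74830674-74830973 (plus strand), Mxd4 at chr5:34187661-34187960 (minus), Max at chr12:76962199-76962498 (minus) and Mlx at chr11:101087040-101087339 (plus). Capitals mark CACGTG.
Mnt: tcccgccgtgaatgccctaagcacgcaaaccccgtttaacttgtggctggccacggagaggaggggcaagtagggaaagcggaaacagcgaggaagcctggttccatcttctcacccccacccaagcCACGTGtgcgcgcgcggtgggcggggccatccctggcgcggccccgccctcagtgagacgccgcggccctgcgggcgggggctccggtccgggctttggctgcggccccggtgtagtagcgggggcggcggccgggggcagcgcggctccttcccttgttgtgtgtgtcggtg
Mxd4: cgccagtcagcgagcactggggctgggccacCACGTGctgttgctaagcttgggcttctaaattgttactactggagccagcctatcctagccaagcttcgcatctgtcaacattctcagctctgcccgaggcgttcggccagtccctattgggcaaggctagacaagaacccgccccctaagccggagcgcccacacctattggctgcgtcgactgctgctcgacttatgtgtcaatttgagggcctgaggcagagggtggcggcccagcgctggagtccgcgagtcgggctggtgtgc
Max: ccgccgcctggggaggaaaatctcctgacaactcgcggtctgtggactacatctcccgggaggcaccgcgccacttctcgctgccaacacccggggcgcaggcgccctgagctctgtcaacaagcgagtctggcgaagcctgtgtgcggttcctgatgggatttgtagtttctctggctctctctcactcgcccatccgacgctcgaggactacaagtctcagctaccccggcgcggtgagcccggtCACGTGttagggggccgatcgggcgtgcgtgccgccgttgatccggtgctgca
Mlx: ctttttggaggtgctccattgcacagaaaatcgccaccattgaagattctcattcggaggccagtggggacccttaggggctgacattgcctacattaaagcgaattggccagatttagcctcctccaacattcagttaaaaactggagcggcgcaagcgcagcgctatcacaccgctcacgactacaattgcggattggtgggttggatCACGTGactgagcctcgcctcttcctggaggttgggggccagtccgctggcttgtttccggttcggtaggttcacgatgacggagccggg

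Windows were found for 9 of the 10 members, in 11 windows since Mxi1 has 3, and Myc has no entry. CACGTG, which reads the same on both strands, was present in 4 of these 11 windows, those of 4 of the 9 members. It starts 123 bases upstream of the gene start in Mnt, 219 in Mxd4, 3 in Max and 40 in Mlx. Of all 32851 windows of that length, 2349 (7.15%) hold it. The related motif CACGCG, searched on both strands, was found in 1 of the 11 member windows, that of Mycl, and in 9.27% of all windows. TGATGNAAT, an element bound by the stress factor ATF4, was in 0 member windows and in 0.965% of all windows, again on both strands. These matches describe the letters of the windows. Of the 4 members with CACGTG, Mnt and Mxd4 rose and Max and Mlx did not pass the test.

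Among the activators, the brighter Myc probe, A_52_P108346, had levels of 4.57 and 4.64 in fluoxetine cells, against 4.83 and 4.90 in control cells. Both fluoxetine arrays were lower, by a margin larger than the gap within either group (0.07 and 0.07), but the change of −0.26 ± 0.09 did not pass (limma, adjusted p = 0.0987). The dimmer Myc probe, A_52_P278549, annotated to the same transcript, gave 1.12 and 1.19 with fluoxetine, against 0.77 and 0.75 without it. This probe rose by 0.39 ± 0.08 (limma, adjusted p = 0.0433). The probes of Myc therefore pointed in opposite directions, and averaging them gave a change of 0.065 (adjusted p = 0.529). The rise of the dimmer probe was not called without any 1 of the 4 arrays (adjusted p from 0.11 without control 2 to 0.161 without fluoxetine 2, with 0.127 without control 1 and 0.146 without fluoxetine 1), nor with centring on the median (adjusted p = 0.0508) or without a filter on dim probes (adjusted p = 0.181).

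Mycn, the paralogue best known from neural tumours, was not well above background on any array, with signals of 4.31 and 4.61 units with fluoxetine and 5.86 and 4.67 units without it. Of the probes of Mycl, the third paralogue, A_51_P240565 was above background on control 1 alone. Its signals were 20.8 and 14.1 units in fluoxetine cells, against 35.1 and 15.8 units in control cells. The other Mycl probe, A_52_P93284, was dim on all 4 arrays. No change is given for either gene, since most values are near or below the dimmest well-above-background signal of each array, 15.8 to 22.3 units.

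Max, the obligate partner, had levels of 4.11 and 4.00 with fluoxetine, against 3.92 and 3.94 without it, at its brighter probe, A_51_P188211. The groups did not overlap, but the change of 0.13 ± 0.09 did not pass (limma, adjusted p = 0.338). At A_55_P2745603, annotated to another Max transcript, the levels were −0.28 and −0.39 in fluoxetine cells, against −0.64 and −0.68 in control cells. That change of 0.32 ± 0.09 also did not pass (limma, adjusted p = 0.0727). Neither Max probe is said to have changed.

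Mxd1, a repressor induced during differentiation of many cell types, did not pass at either probe as reported. At its brighter probe, A_51_P490795, the levels were 0.66 and 0.91 with fluoxetine, against 0.88 and −0.78 without it. The control arrays were 1.66 log2 units apart, so the groups overlapped and the change of 0.73 ± 0.61 did not pass (limma, adjusted p = 0.403). Without control 1 the change was 1.56, and without control 2 it was −0.10. At the dimmer Mxd1 probe, A_51_P388607, the levels were −2.78 and −3.32 in fluoxetine cells, against −5.13 and −4.20 in control cells, where it was not well above background. The difference there is only a bound, at least 2.32-fold higher with fluoxetine (limma, adjusted p = 0.0556 for the measured change of 1.61 ± 0.39). The probe was kept only through the fluoxetine arrays, where it is high, so nothing is read from that p. The bound sets the fluoxetine mean against a floor taken on each control array, either the dimmest signal still well above background or the signal of the probe, whichever was higher. With fluoxetine 1 alone the bound was 2.80-fold, and with fluoxetine 2 alone 1.93-fold. With normexp background correction the measured change was 0.56, smaller than the bound, and with quantile scaling it was 1.80. Some settings took the adjusted p of this probe under 0.05, and nothing is read from those for the same reason.

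**Figure D2:**
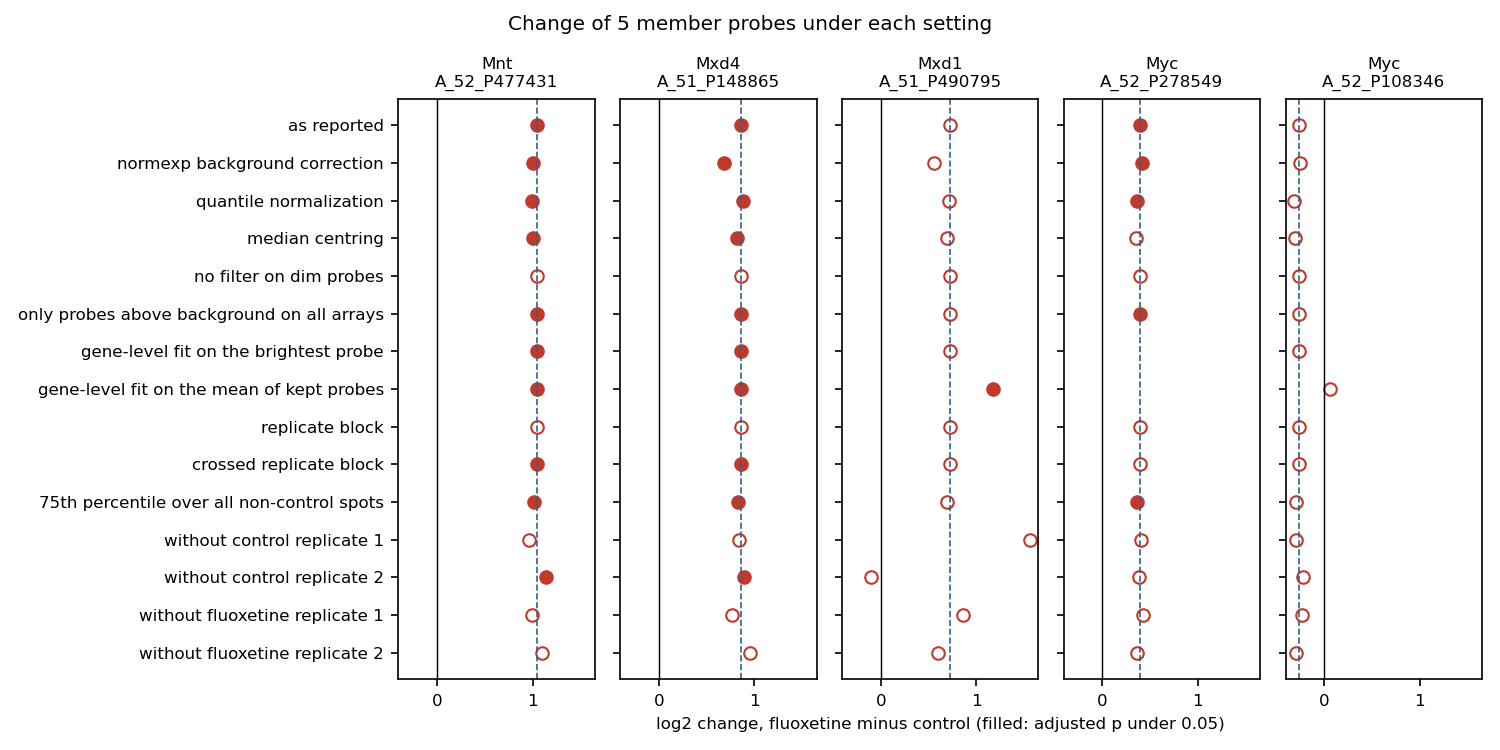
Log2 change, fluoxetine minus control, of 5 member probes as reported (top) and under each of the 14 alternatives (the dimmer Myc probe has no value of its own in the gene-level fits), with filled points where the adjusted p was under 0.05 and a dashed line at the reported change. Mnt and Mxd4 lie right of 0 throughout, the brighter Mxd1 probe moves with the control array left out and its filled point averages in the probe kept only through the fluoxetine arrays, and the Myc probes lie on opposite sides of 0 except where they are averaged.

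Mxd3, the family member whose expression accompanies S phase, had levels of −1.87 and −1.77 with fluoxetine, against −1.42 and −1.63 without it, at A_52_P190647. The change of −0.30 ± 0.12 did not pass (limma, adjusted p = 0.134). Its other probe, A_51_P315530, gave −2.12 and −2.16 in fluoxetine cells, against −2.11 and −2.14 in control cells, and those groups overlapped. Mxi1, also called MXD2, had levels of 3.99 and 3.85 with fluoxetine, against 3.55 and 3.77 without it. Its change of 0.26 ± 0.12 did not pass (limma, adjusted p = 0.192).

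Mlx, the partner of MondoA and ChREBP, had levels of 1.72 and 1.90 in fluoxetine cells, against 1.50 and 1.52 in control cells, at A_51_P261443. The groups lay apart, and the change of 0.30 ± 0.10 did not pass (limma, adjusted p = 0.1). The second Mlx probe, A_66_P117739, was dim on all arrays. Over the family as a whole, 10 of 12 kept probes had groups that did not overlap, where 72.5% of all kept probes did so. Of these 10, A_51_P388607 of Mxd1 was kept only through the fluoxetine arrays. Of the 12, 3 were called, where 25.6% of all kept probes were.

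**Figure D3:**
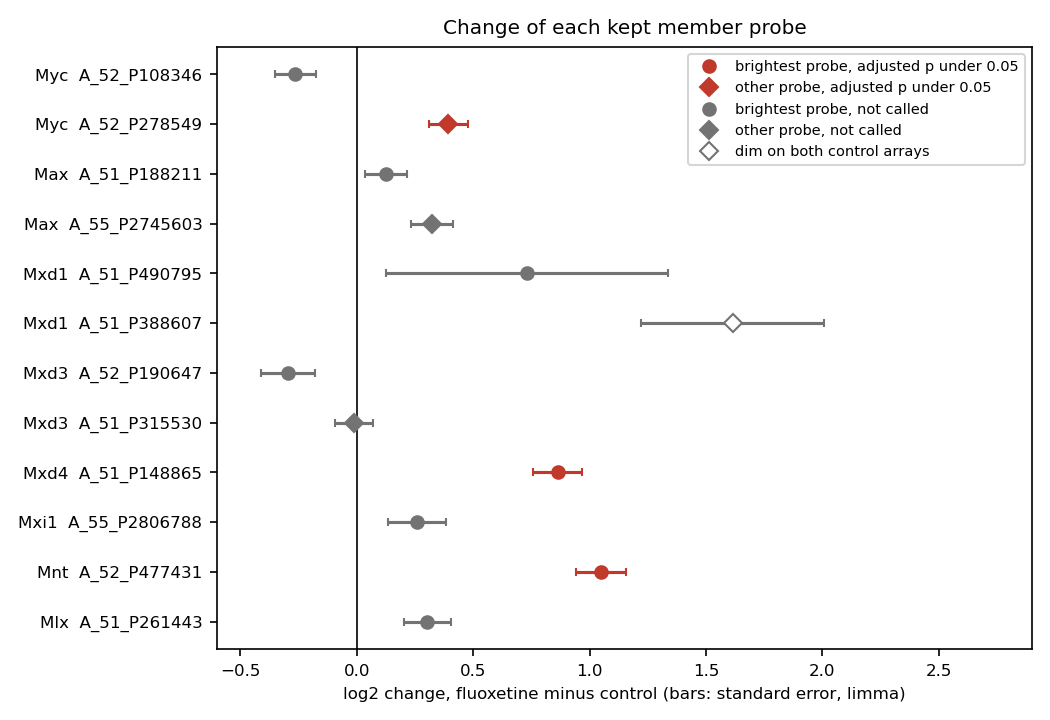
Log2 change, fluoxetine minus control, of each kept member probe, with the standard error from limma as bars (n = 2 arrays per group). Circles are the brightest probe of a gene and diamonds its other probe, red marks an adjusted p under 0.05, and the open diamond was dim on both control arrays. Mnt and Mxd4 stand at 1.05 and 0.86, and the probes of Myc lie on opposite sides of 0.

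Beyond the members, 1 of 3 further genes of the network rose. It was Mlxip, which encodes MondoA, the glucose-sensing partner of MLX (0.95 ± 0.16, limma, adjusted p = 0.0298). Mga, a large MAX partner, was at −0.01 and Mlxipl, which encodes ChREBP, at −0.29, and neither passed. Of 5 tested targets of the MLX complexes, 1 rose and 1 fell, where 14.3% of all genes rose and 8.49% fell. Txnip, the thioredoxin-binding arrestin that MondoA induces, rose by 0.55 ± 0.09 (limma, adjusted p = 0.0291), and the arrestin gene Arrdc3 fell by 0.41 on the log2 scale (adjusted p = 0.0459, and 0.0703 with normexp background correction).

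The lists of genes that MYC activates or represses were chosen with earlier results of these data known, so their shares are descriptive only. Among genes that MYC is known to activate, more fell than rose. Of 48 tested, 7 fell (14.6%, where 8.49% of all genes fell), 3 rose (6.25%, where 14.3% of all genes rose) and 38 did not pass, and the median was −0.09, against 0.06 for all genes. The largest falls were in Dkc1, a pseudouridine synthase of the nucleolus (−1.01 ± 0.12), the ribosome biogenesis genes Wdr43 (−0.70 ± 0.09) and Nop56 (−0.70 ± 0.08), and the cell cycle factor E2f2 (−0.69 ± 0.09), with adjusted p from 0.0178 to 0.0195 in limma. The rises were in the glucose transporter gene Slc2a1 (0.69 ± 0.09), the G1 kinase gene Cdk4 (0.54 ± 0.08) and the purine synthesis gene Gart (0.46 ± 0.09), with adjusted p from 0.0201 to 0.0401. Of the 4 kept probes of Cdk4, 1 had a change of the opposite sign to the brightest, and the mean of its probes was not called (0.29, adjusted p = 0.0634).

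Genes that MYC is known to repress included 3 of 8 tested that rose, where 14.3% of all genes did, and 0 that fell, where 8.49% did. Those that rose were Ndrg1, a stress-responsive growth suppressor (0.91 ± 0.11), Cdkn1a, the cell cycle inhibitor p21 (0.58 ± 0.11), and Ndrg2 (0.52 ± 0.09), with adjusted p from 0.0192 to 0.0356. The 1 gene lower at an unadjusted p under 0.05 in limma was Cdkn1b, which did not pass (−0.53 ± 0.13, adjusted p = 0.0605). At that cut 2195 of all 13539 genes were lower. The list median was 0.30, against 0.06 for all genes. The remaining listed genes Gas1, Thbs1, Pdgfrb and Cebpa were too dim to test.

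The protein machinery around the network was read against the same shares of all genes, 14.3% higher and 8.49% lower. At an unadjusted p under 0.05 in limma, 3289 of all 13539 genes were higher and 2195 lower. Of 13 genes of the SIN3 corepressor that MXD proteins and MNT recruit, 2 rose (15.4%, close to all genes) and 0 fell, with 3 higher and 1 lower at an unadjusted p under 0.05 in limma. Suds3, a subunit of the complex, rose by 0.74 ± 0.09 and its scaffold gene Sin3a by 0.55 ± 0.10 (adjusted p = 0.0188 and 0.0326). In the list of MYC cofactors 0 of 12 were called in limma, with 1 higher and 1 lower at an unadjusted p under 0.05, and the largest changes were those of Zbtb17, which encodes the MYC partner MIZ1 (0.37, adjusted p = 0.0554), and the chromatin remodeller gene Ep400 (−0.34, adjusted p = 0.22). Among 19 genes that set MYC protein stability, 1 rose and 0 fell, against 5 higher and 2 lower at an unadjusted p under 0.05. It was Mapk3, the kinase ERK1 (0.64 ± 0.09, limma, adjusted p = 0.0228).

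The last lists concern Myc RNA itself. Of 11 tested genes that control Myc transcription, 1 rose and 1 fell (9.09% each), where 14.3% of all genes rose and 8.49% fell. Stat3, a transcription factor downstream of cytokine receptors, rose (0.40 ± 0.08, limma, adjusted p = 0.0412). Pvt1, the non-coding RNA gene beside Myc, fell by 0.39 on the log2 scale (adjusted p = 0.0405). Of 6 tested genes of Myc messenger RNA stability, 1 was called higher and 1 lower (16.7% each), against the same shares of all genes. Igf2bp2 rose (0.52 ± 0.09, limma, adjusted p = 0.0319). Igf2bp1, whose protein shields Myc messenger RNA from decay, was not well above background in fluoxetine cells, where its signals were 7.82 and 11.6 units, against 30.7 and 37.1 units in control cells. It was at least 1.80-fold lower with fluoxetine (limma, adjusted p = 0.0184). It was kept only through the control arrays, where it is high, so nothing is read from that p. It is counted among the 13 called genes of the other lists given below. With normexp background correction, which compresses dim signals, its change was −0.24 and was not called (adjusted p = 0.142), nor was Igf2bp2 on the mean of its probes (0.28, adjusted p = 0.0868). These calls rest on the same few arrays: without control 1, fluoxetine 1 or fluoxetine 2, limma called 0 of the MYC-activated targets (10, 11 and 10 at an unadjusted p under 0.05) and 0 of the genes of the other lists (17, 14 and 22). Without control 2 it called 5 and 3, where all 4 arrays gave 10 and 13.

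**Figure D4:**
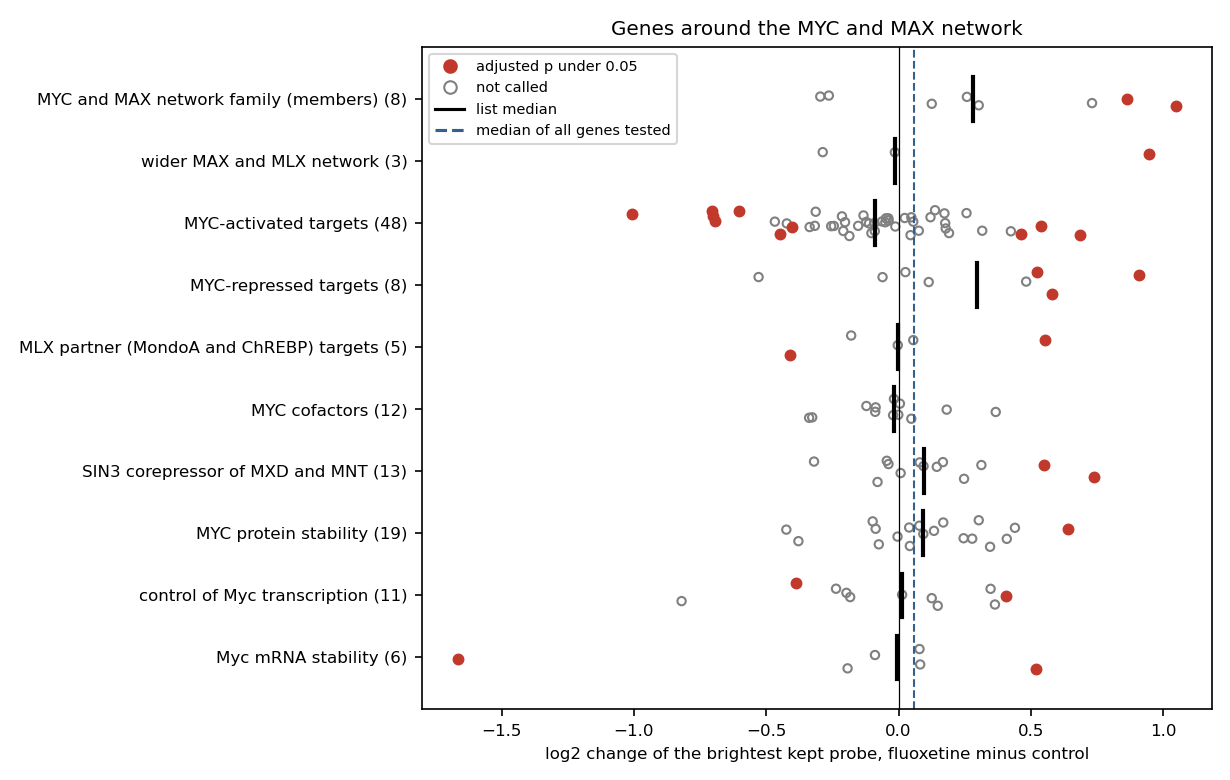
Log2 change, fluoxetine minus control, of the brightest kept probe of each tested gene in the member family and 9 lists around it, with the number tested in parentheses. Red points have an adjusted p under 0.05, black bars are list medians and the dashed line is the median of all genes tested (0.06). The MYC-activated targets carry 7 red points below 0 and 3 above it, and the red point at −1.67 is Igf2bp1, kept only through the control arrays.

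The levels most like those of Mnt across the 4 arrays were those of Yars, Nbl1 and Eif4ebp1, and those most like Mxd4 were Tsc22d4, Sesn2 and Tgfbr3. Likeness was the root mean square difference of the levels after subtracting the mean of each probe, among 11726 genes above background on all arrays. It was 0.013, 0.020 and 0.022 log2 units for Mnt and 0.006, 0.011 and 0.011 for Mxd4. The changes were 1.03 for Yars, 1.05 for Nbl1 and 1.05 for Eif4ebp1, and 0.86 for Tsc22d4, 0.85 for Sesn2 and 0.85 for Tgfbr3. That they are close to those of Mnt and Mxd4 follows from how the genes were picked.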

How the data were processed

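Single-colour Agilent arrays of 2 fluoxetine and 2 control samples were used. Linear spot intensity was deposited, and per the file headers it was read from the scans with Feature Extraction 12.1.0.3. The background-corrected processed signal was used, which those headers show was not scaled across arrays. Other deposited columns hold the software's 0 or 1 calls of brightness over background, saturation and uniformity. The array design is annotated on mm9, so no coordinates of probes are given, and any later step of the authors is not given in these sources.

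Control and non-uniform spots were left out (47 probes), replicate spots were averaged, and log2 signals were set relative to the 75th percentile of each array over distinct probes (R 4.3.3, limma 3.58.1). Probe accessions were named through RefSeq genes of GRCm38.p6, and 34645 of 56558 probes matched 1 symbol. A probe was kept if both fluoxetine arrays or both control arrays read it well above background (28270 probes). Fluoxetine minus control was fitted over all kept probes with lmFit and eBayes, with Benjamini-Hochberg adjustment, and lists were read through the brightest kept probe of each gene (13539 genes). An exact permutation test over these samples cannot go below p = 0.333, and the number of arrays limits the precision. The share of non-control spots read well above background was 51.7% to 53.5% per array, with 0 saturated.

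The members and lists were chosen with earlier results of these data known. Every member probe is reported. From each other list the rule named up to 4 called genes in each direction, with the largest changes among genes whose groups do not overlap, or the 2 largest changes where none was called. For likeness it named the 3 closest genes to each called member, passing over gene models and clones. Stability was tried over other background corrections, scalings, filters, probe summaries, a replicate block and leaving out each array. Normexp used the median spot signal, since the files read here hold no mean signal column. The fit was tested on simulated data with known changes.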

Additional observations from a re-analysis of the deposited data

How the results depend on the processing

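Limma called 7239 of 28270 probes, 2 of 8 members, 10 MYC-activated targets and 13 other list genes (including Igf2bp1, kept only through control arrays). These counts stayed within 1.5 times of that with normexp, quantile scaling, median centring, a percentile over all spots (added after seeing the data) and the stricter filter. Without a filter on dim probes all 4 counts were 0 (11588, 2, 12 and 20 at an unadjusted p under 0.05). Fits at gene level, which test fewer features, called 3642 genes on the brightest probe and 3610 on the mean of probes. Leaving out 1 array gave 0 to 4624 probes, 0 to 2 members, 0 to 5 MYC-activated targets and 0 to 3 other list genes. Where an array was left out, the lone array of its group was assumed to vary like the other group.

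The labels do not say that equal replicate numbers share a culture, and the deviations of same-numbered arrays from their group means had a weak correlation (r = −0.107 across probes). With the replicate number as a block, limma called 1520 probes, 0 members (2 at an unadjusted p under 0.05), 0 MYC-activated targets (11) and 1 other list gene (Igf2bp1, kept only through the control arrays). The adjusted p was 0.051 for Mnt, 0.0559 for Mxd4 and 0.13 for the dimmer Myc probe. The crossed pairing, added after seeing the data, called 3480 probes, 2 members, 5 MYC-activated targets and 3 other list genes. Over all settings the dimmer Myc probe was called in 5 of 13. The dimmer Mxd1 probe was kept only through the fluoxetine arrays, so its calls are not counted.

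The change of the brighter Myc probe turned positive (0.065) when both probes were averaged, and that of the brighter Mxd1 probe ran from −0.10 without control 2 to 1.56 without control 1; the cause was not tested for either. Mxd3 probe A_51_P315530, close to 0, read 0.00103 with normexp, 0.11 with quantile scaling, and −0.038 to 0.0104 with 1 array left out. Mnt (0.96 to 1.14) and Mxd4 (0.69 to 0.96) kept their direction under every setting tried and were called in 10 of 15 each, counting the fit reported.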
